A study of Mus musculus with 12 samples.

Results

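The nonmuscle myosin II genes Myh9, Myh10, Myl9, Myl6, Myl12a and Myl12b, the myosin light chain kinase gene Mylk and the ROCK kinase genes Rock1 and Rock2 were taken by gene symbol from the count table, and made up 9 of its 41128 genes. Their expression was followed through 4 groups of Pre-Megakaryocyte/Erythroid progenitors (PreMegEs), the bone marrow cells from which megakaryocytes and red cells arise. Among the 9 genes, the contrast between the groups was largest for the heavy chain gene Myh10 and for Mylk, which lay in opposite order. Myh10 had 80.5 ± 12.7 CPM (counts scaled to the size of each library, with TMM factors; SD, n = 3) in P2- PreMegEs and 9.98 ± 1.19 CPM (SD, n = 3) in P2+ PreMegEs. Mylk had 2.51 ± 1.35 CPM in P2- and 19.5 ± 6.18 CPM in P2+ PreMegEs (SD, n = 3 each).

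PreMegEs were sorted from adult bone marrow of C57BL/6 mice aged 12-16 weeks, and poly(A) RNA of 12 libraries was sequenced, 3 per group, each from 3 mice pooled. The WT group was wild type. The P2+ and P2- groups came from mice with 1 Runx1 P1-GFP::P2-hCD4 reporter allele over a normal one, and were separated by whether human CD4, driven from the proximal P2 promoter of Runx1, was on the cell surface. The KO group was labelled RUNX1C knockout, that is, without the protein made from the distal P1 promoter, and the labels name no allele. The paper speaks of Runx1 haploinsufficiency in cells of this line. P2+ and P2- cells thus differ from WT cells in the sort, the reporter allele and the Runx1 dose that goes with it. These cannot be told apart. Whether the KO libraries were prepared and sequenced together with the others is not given in the sources used here. The paper reports sequencing of WT, P2+ and P2- PreMegEs and no KO cells, and the KO samples are numbered apart from the rest. A difference in batch could therefore not be told from the knockout. Because the samples are pools of sorted cells, fewer cells of a type and less RNA per cell cannot be told apart.

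Nonmuscle myosin II is the motor that pulls on actin filaments in cells other than muscle. Each motor holds a pair of heavy chains (the IIA chain from Myh9, the IIB chain from Myh10 or the IIC chain from Myh14), essential light chains (Myl6) and regulatory light chains (Myl9, Myl12a or Myl12b). Phosphorylation of the regulatory light chain, by myosin light chain kinase and by ROCK, switches the motor on, and ROCK also holds back the phosphatase that reverses it. In megakaryocytes, which become polyploid by cycling without completing cytokinesis, RUNX1 is known to silence MYH10 and to bind the MYL9 gene, and MYH9 mutations cause large platelets and a low platelet count.

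RUNX1 binds TGTGGT or TGCGGT on either strand, and the 250 bases before the RefSeq start sites used here (GRCm38.p6) were searched for these letters. Not every annotated start of these genes was covered. 8 of the 9 genes were searched (not Rock1), and of these only Mylk held a match. Its 2 matches, in capitals, read ACCACA on the printed plus strand and end 88 and 78 bases before a start at which the window chr16:34784700-34784949 closes. That start lies inside the Mylk gene as annotated (chr16:34745210-35002420), past its first start site. The window of Myh10 (chr11:68691665-68691914, plus strand), the gene with the largest fall from P2- to P2+ among the 9, is printed for comparison and held no match. It also lies inside its gene as annotated (chr11:68691559-68816632), past the first start site. Both sequences are written 5′ to 3′.
Mylk: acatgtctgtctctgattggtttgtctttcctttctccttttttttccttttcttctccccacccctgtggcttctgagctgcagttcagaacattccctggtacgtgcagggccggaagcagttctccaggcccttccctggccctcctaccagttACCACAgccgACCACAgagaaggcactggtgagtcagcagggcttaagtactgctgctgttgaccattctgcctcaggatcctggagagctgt
Myh10: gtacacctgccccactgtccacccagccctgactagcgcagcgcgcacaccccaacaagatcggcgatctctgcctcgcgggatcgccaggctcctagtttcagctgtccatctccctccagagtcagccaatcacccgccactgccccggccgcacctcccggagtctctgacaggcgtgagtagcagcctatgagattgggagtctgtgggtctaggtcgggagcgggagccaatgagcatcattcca
Among 32851 windows of this length, 18.6% held at least 1 match and 1.96% held 2 or more. The GATA motif AGATAA was found in none of the searched genes and in 9.99% of all windows. A CArG box, the site of serum response factor, was found in the Myl9 window and in that of 1 of the 2 Myl6 starts, and in 1.47% of all windows. These are matches of letters, and no binding was measured.

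Libraries held between 10726098 and 14445026 counts, so that 3 counts, the limit that a count of 0 allows, corresponded to between 0.207 and 0.288 CPM (counting error only). The PreMegE markers Kit, Slamf1, Gata1 and Gata2 were above 3 counts in every group, with a summed level of 1940 to 2515 CPM. Markers of the lineages beyond the PreMegE moved with the groups. The summed level of 15 erythroid markers was 5963-6787 CPM in P2-, 5714-6421 in KO, 3356-3871 in WT and 1313-1551 in P2+ libraries. The summed level of 14 megakaryocyte and platelet markers was 648-775 CPM in P2-, 1070-1110 in KO, 1185-1252 in WT and 1435-1949 in P2+ libraries. The 8 stem cell markers summed to 269-303 CPM in P2-, 332-384 in KO, 562-645 in WT and 982-1090 in P2+ libraries. In the same order of groups, the 14 neutrophil and monocyte markers summed to 67.3-169, 80.4-131, 180-310 and 320-445 CPM and the 12 lymphoid markers to 101-136, 114-117, 240-267 and 198-283 CPM. The 8 mast cell and basophil markers summed to 910-985, 1011-1095, 1145-1243 and 1028-1164 CPM. Of these, Gata2, also among the PreMegE markers, alone gave 882-960, 963-1037, 1098-1210 and 891-1050 CPM. The study's PreMegE stain holds a lineage cocktail against surface proteins of T cells, B cells, granulocytes, macrophages and red cells. It also holds antibodies to Sca1 and to the Fc receptors of myeloid cells. The gate takes cKit-positive cells without these and is meant to leave out mature cells of those types. It also leaves out cells with CD41 or Endoglin, by which the study tells megakaryocyte and later erythroid progenitors from PreMegEs. The part of the marker levels in the results was not tested. Of the smooth muscle and stroma list, which holds cells rich in Myl9 and Mylk, Acta2, Cnn1, Des, Myh11 and Col3a1 were at or under 3 counts in every library of all groups. Other genes of that list were present, among them Pecam1 (45.8-94.8 CPM over all libraries), Pdgfrb (40.5-64.1 CPM), Smtn (4.42-17.0 CPM), Col1a2 (0.576-16.6 CPM, with 7.35-16.6 in WT) and Col1a1 (up to 27.3 CPM in WT and up to 0.941 CPM elsewhere). The 13 genes summed to 105-109 CPM in P2-, 110-113 in KO, 159-217 in WT and 131-155 CPM in P2+ libraries.

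Runx1 itself, the gene the study targeted, was counted over both promoters together. It had 369 ± 15.6 CPM in WT, 211 ± 7.41 in P2-, 631 ± 24.2 in P2+ and 360 ± 20.4 in KO PreMegEs (SD, n = 3 each). The P2+ and P2- cells were sorted on a Runx1 reporter, so their difference in Runx1 follows the sort. KO and WT libraries overlapped (log2 difference -0.05, 95% interval -0.18 to 0.09, adjusted p = 0.702), and a total over both promoters does not check the loss of RUNX1C. All tests across genes are edgeR quasi-likelihood tests with Benjamini-Hochberg adjustment over all genes that passed a filter of 1 CPM in 3 libraries, and a gene was called at an adjusted p under 0.05. 8 of the 9 genes passed the filter in each comparison, and Myl9 did not.

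Between P2+ and P2- PreMegEs, 4 of the 8 tested genes were higher in P2+ (Myh9, Myl12b, Mylk and Rock2) and 1 was lower (Myh10). Across all genes tested, 20.1% were called higher and 17.0% lower in this comparison, and with a minimum of 2-fold 12.7% were called, against 2 of the 8 genes here. The median log2 difference was 0.17 over the 8 genes and -0.02 over all genes. Against WT, 1 of the 8 genes was higher (Mylk) and 1 lower (Myh10) in P2+ cells, both at least 2-fold, where 9.45%, 7.07% and 3.84% of all genes were called higher, lower and at least 2-fold changed. In P2- cells 1 was higher than in WT (Myh10) and 4 were lower (Myh9, Myl12b, Mylk and Rock2), 2 of them at least 2-fold, against 6.85%, 9.60% and 4.68% of all genes. The comparisons share libraries, so that these counts are not independent of each other.

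In KO PreMegEs 1 of the 8 genes was higher than in WT (Myh10) and 2 were lower (Myl12b and Rock2), where 6.18% of all genes were called higher and 8.76% lower. None of the 3 changed 2-fold, against 3.41% of all genes. Against P2- cells, Myh10 alone was called, lower in KO, where 1.33% of all genes were called higher and 0.278% lower. Against P2+ cells Myh10 was higher in KO and Myh9, Myl12b, Mylk and Rock2 were lower, against 16.7% and 20.3% of all genes.

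**Figure D1:**
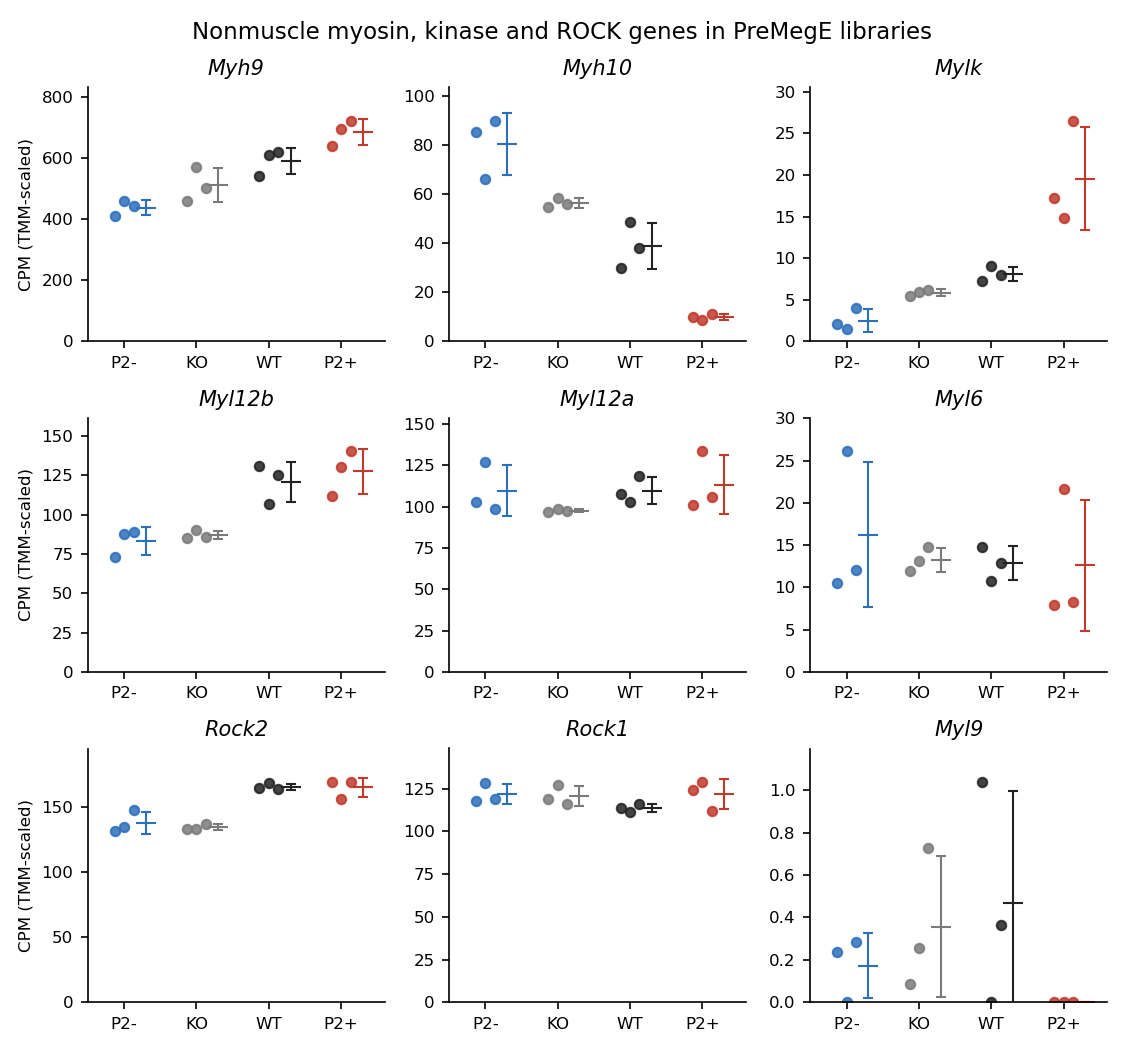
CPM (linear axes from 0) of the 9 genes in each library of the P2-, KO, WT and P2+ groups; points are libraries, and the bar beside them is the mean ± SD (n = 3; bars that would reach below 0 end at the axis). Myh10 falls from 66.2-90.1 CPM in P2- to 8.83-11.2 in P2+ libraries, Mylk rises from 1.44-4.02 to 14.8-26.5, and Rock1 stays between 111 and 129 CPM in all 12.

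Myh10, the IIB heavy chain, was ordered P2- over KO over WT over P2+, and each neighbouring pair differed. The call of P2- over KO was lost in 7 of 12 alternatives, as given below. The 3 P2- libraries had 85.4, 66.2 and 90.1 CPM. The KO libraries had 54.8, 58.5 and 55.9 CPM, and the WT libraries 29.8, 48.6 and 37.95 CPM. The P2+ libraries had 9.88, 8.83 and 11.2 CPM, and no library of one group reached the range of another. The level was 8.0-fold lower in P2+ than in P2- cells (log2 difference -3.0 ± 0.15 SE, adjusted p = 3.66e-06), and 3.87-fold lower than in WT (-1.95 ± 0.19, adjusted p = 1.01e-04). In P2- cells it was 2.09-fold higher than in WT (1.06 ± 0.17, adjusted p = 0.00236).

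In the KO, Myh10 rose 1.45-fold over WT (log2 difference 0.54 ± 0.13 SE, adjusted p = 0.0099), while the total of Runx1 in the same libraries overlapped with WT. The call held under each of the 12 alternatives, with log2 differences of 0.37 to 0.73. KO cells had 1.43-fold less Myh10 than P2- cells (-0.52 ± 0.11, adjusted p = 0.0457), a call that was lost in 7 of 12 alternatives. Leaving out 1 library ended it for any of the 3 KO libraries (adjusted p = 0.205, 0.157 and 0.183 without replicates 1, 2 and 3) and for P2- replicates 1 and 3 (0.119 and 0.0991), with log2 differences of -0.43 to -0.54. By their medians the summed erythroid markers had the same order over the groups as Myh10, with P2- and KO libraries overlapping, and the megakaryocyte markers had the reverse order.

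Myh9, the IIA heavy chain, was far more abundant and moved the other way by less. P2- libraries had 411, 460 and 443 CPM and P2+ libraries 639, 695 and 722 CPM, without overlap. The difference was 1.58-fold (log2 0.66 ± 0.08 SE, adjusted p = 3.21e-04). WT libraries had 541, 610 and 620 CPM, above all P2- libraries (P2- minus WT -0.43 ± 0.08, adjusted p = 0.00652) and below all P2+ libraries, although the latter difference did not pass (0.22, 95% interval 0.05 to 0.39, adjusted p = 0.0778 and, with DESeq2, 0.0446). KO libraries had 460, 570 and 503 CPM, which overlapped WT (-0.22, 95% interval -0.38 to -0.06, adjusted p = 0.0676). This last difference passed in 6 of 12 alternatives, among them without KO replicate 2 (-0.31, adjusted p = 0.0162) and without WT replicate 1 (-0.28, adjusted p = 0.0202). In the order P2+, WT, KO, P2-, no neighbouring pair passed the adjusted threshold, although the 95% interval of each of the 3 differences left out 0 (KO minus P2- 0.22, 0.03 to 0.41, adjusted p = 0.252).

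Per length, on the RPKM scale (CPM divided by the exonic length in kilobases), Myh9 had 45.7 ± 3.32 and Myh10 3.71 ± 0.90 RPKM in WT PreMegEs (SD, n = 3). Myh14, the IIC heavy chain, had at most 3 counts in any library. Myh10 therefore made up 7.45 ± 1.34% of the heavy chain RPKM in WT, 18.5 ± 3.00% in P2-, 1.77 ± 0.19% in P2+ and 12.1 ± 0.81% in KO PreMegEs (SD, n = 3 each). The P2- libraries had 20.5, 15.1 and 20.1%, the KO libraries 12.9, 11.3 and 12.1%, the WT libraries 6.37, 8.96 and 7.03% and the P2+ libraries 1.88, 1.55 and 1.88%. The groups did not overlap in any of the 6 pairs. Each pair gave p = 0.1 in a two-sided exact permutation test, also after adjustment over the 6 pairs, which is the smallest p that 3 against 3 libraries allow. The size of the Myh10 share depends on the length used. Its P2+ minus P2- difference was -16.8 percentage points with all exons and -13.6 with principal transcript lengths. The sum of the heavy chains moved less than this share, with 41.6 ± 1.51 RPKM in P2-, 44.9 ± 4.52 in KO, 49.4 ± 4.05 in WT and 54.0 ± 3.32 in P2+ cells (SD, n = 3 each).

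**Figure D2:**
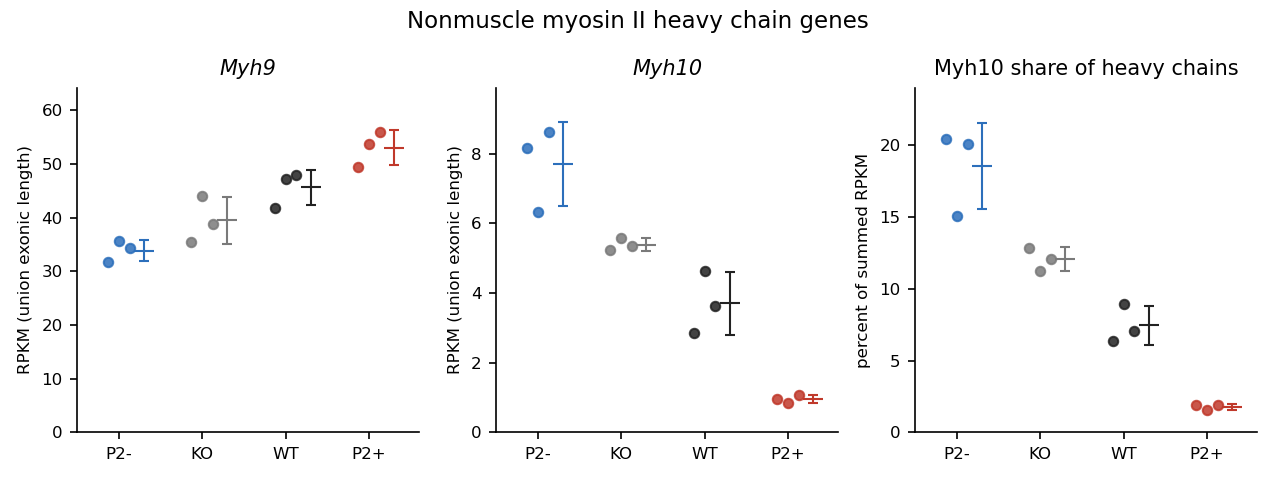
RPKM of Myh9 and of Myh10 and the percent of summed heavy chain RPKM taken by Myh10 (linear axes from 0), by library, for P2-, KO, WT and P2+ PreMegEs; bars beside the points are the mean ± SD (n = 3). The share falls from 18.5% in P2- to 1.77% in P2+, with KO at 12.1% and WT at 7.45%, and no 2 groups overlap.

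The regulatory light chain gene Myl12b was ordered as Myh9 was. P2+ libraries had 112, 130 and 140 CPM and P2- libraries 73.0, 87.6 and 89.1 CPM, a 1.55-fold difference (log2 0.63 ± 0.11 SE, adjusted p = 0.00222). The KO libraries, with 85.2, 90.2 and 85.9 CPM, lay below the WT libraries, with 131, 107 and 125 CPM (-0.48 ± 0.08, adjusted p = 3.91e-04), and this call held under each of the 12 alternatives. P2- was also below WT (-0.535 ± 0.105, adjusted p = 0.00705). KO and P2- cells did not differ beyond their spread (0.06, 95% interval -0.14 to 0.26), nor did P2+ and WT (0.085, -0.15 to 0.32).

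Its neighbour and near copy Myl12a showed no called difference in any of the 6 comparisons, with group means of 97.4 to 113 CPM. Its P2+ minus P2- difference was 0.06 (95% interval -0.24 to 0.36), and its 3 KO libraries, at 96.6 to 98.5 CPM, lay below the 3 WT libraries, at 103 to 119 CPM, without passing (-0.18, 95% interval -0.33 to -0.03, adjusted p = 0.115). KO minus P2+ passed only without P2+ replicate 1 (-0.31, adjusted p = 0.0388, against -0.23 and 0.101 with all libraries). Transcripts of Myl12a and Myl12b match each other, and those of Myl12a also match the pseudogene Gm6517, at 95% identity or more over at least 75 bases. Reads were aligned with Bowtie2 at default settings. How reads with more than 1 possible alignment were counted is not given in the sources used here, so the split of counts between these genes is uncertain. Gm6517 itself had group means of 74.3 to 81.4 CPM, and none of its 6 differences passed. The sum of all 3, in the order of the libraries, was 250, 302 and 263 CPM in P2-, 276, 352 and 321 CPM in P2+, 317, 286 and 331 CPM in WT and 250, 271 and 256 CPM in KO cells. By this sum the KO libraries lay below the WT libraries. P2+ and P2- libraries overlapped as groups, but P2+ was higher in each of the 3 same-numbered pairs.

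Myl9, a regulatory light chain gene known as a RUNX1 target in megakaryocytes, was close to absent from PreMegEs. The WT libraries had 15, 0 and 5 counts, the KO libraries 1, 3 and 8, the P2- libraries 3, 0 and 4, and all 3 P2+ libraries 0. A count of 0 allows up to 0.207-0.251 CPM in a P2+ library, and the most in any library was 1.04 CPM, in WT replicate 1. Fitted by edgeR without the filter, Myl9 passed in none of the 6 comparisons (adjusted p = 0.0571 to 0.845, the lowest in KO against P2+). Myl9 took at most 1.12% of the regulatory light chain RPKM in any library. Differences in that share between groups gave exact permutation p values of 0.1 to 1, and 0.6 to 1 after adjustment over 6 pairs. The regulatory light chains, summed, had 62.8 ± 6.23 RPKM in P2-, 60.8 ± 1.27 in KO, 76.6 ± 6.60 in WT and 79.8 ± 8.43 in P2+ cells (SD, n = 3 each).

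Myl6, the essential light chain gene, was called in none of the 6 comparisons, with group means of 12.6 to 16.2 CPM. In P2- libraries it had 10.5, 26.1 and 12.1 CPM and in P2+ libraries 7.96, 21.6 and 8.24 CPM, so that replicate 2 was the high library of both groups. Fos, an immediate early gene, was also high in those 2 libraries, at 1326 and 903 CPM against 0.318 to 18.5 CPM in the other 4 of these groups. In WT, Fos was highest in replicate 3 (165.9 CPM), where Myl6 had 12.9 CPM, between 14.8 and 10.8 CPM in replicates 1 and 2. In KO, replicate 3 was highest both in Fos (87.45 CPM) and in Myl6 (14.7 CPM, against 11.9 and 13.2). The link of the 2 genes was not tested. The P2+ minus P2- log2 difference of Myl6 was -0.34 (95% interval -1.37 to 0.69, adjusted p = 0.599). With the replicate number as a block it was -0.39 and passed (adjusted p = 0.0465). Same-numbered P2+ and P2- libraries deviated together over all tested genes, and the part of this in the call was not tested. Without replicate 2 of P2+, Myl6 was lower in P2+ than in WT (-0.67, adjusted p = 0.0407) and higher in KO than in P2+ (0.69, adjusted p = 0.00962). The counts of Myl6 are uncertain. It has 5 near-identical copies, of which the pseudogene Gm5526 alone took more counts (28.4 to 32.0 CPM as group means) than Myl6. Summed with these copies, Myl6 had 49.3, 61.7 and 47.4 CPM in P2-, 42.9, 57.4 and 48.7 in P2+, 51.4, 47.6 and 54.9 in WT and 52.0, 55.9 and 53.6 in KO libraries, and the groups overlapped. The alternative essential light chain gene Myl6b was low, with 1.75 to 2.66 CPM as group means.

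Mylk encodes the kinase that phosphorylates the regulatory light chain in response to calcium and calmodulin. P2- libraries had 2.07, 1.44 and 4.02 CPM (26, 15 and 57 counts), and P2+ libraries 17.3, 14.8 and 26.5 CPM (206, 215 and 348 counts). The level was 7.68-fold higher in P2+ (log2 difference 2.94 ± 0.37 SE, adjusted p = 3.69e-04), with log2 differences of 2.66 to 3.47 under the 13 alternatives, all of which passed. WT libraries, at 7.28, 9.04 and 8.01 CPM, lay between them without overlap. P2+ was 2.42-fold above WT (1.27 ± 0.22, adjusted p = 0.00349) and P2- 3.16-fold below it (-1.66 ± 0.34, adjusted p = 0.00871).

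KO libraries had 5.41, 5.99 and 6.19 CPM of Mylk, below all WT and above all P2- libraries, but neither difference passed. Against WT it was -0.47 (95% interval -0.91 to -0.04, adjusted p = 0.148), and against P2- it was 1.19 (0.42 to 1.96, adjusted p = 0.127). The second passed in 4 of 12 alternatives, with DESeq2, with the exact test of edgeR, without the filter and without P2- replicate 3 (adjusted p = 0.0347 at the lowest). Among smooth muscle genes, Acta2, Cnn1 and Myh11 were at or under 3 counts in every library, while Smtn, the smoothelin gene, was at 4.42-6.85 CPM in P2-, 6.90-10.8 in KO, 9.46-13.3 in WT and 12.0-17.0 in P2+ libraries, in the group order of Mylk. The PreMegE gate takes cKit-positive, Slamf1-positive cells. The part of any other cells, or of Smtn, in the Mylk levels was not tested. Antisense genes overlap Mylk in the annotation, and whether the counting used strand is not given in the sources used here.

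**Figure D3:**
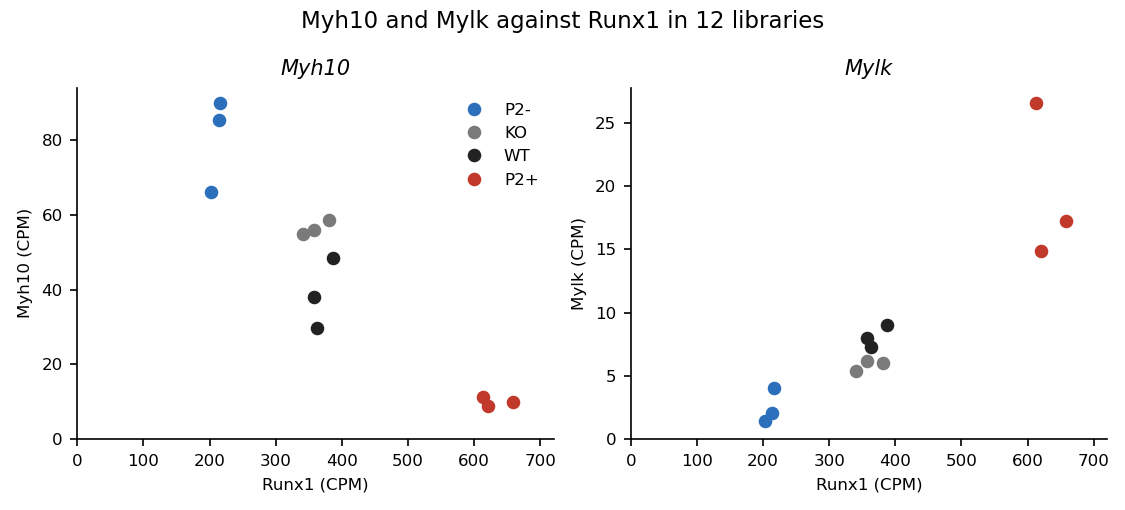
CPM of Myh10 (left) and of Mylk (right) against CPM of Runx1, counted over both promoters, in 12 libraries, coloured by group (linear axes from 0). KO and WT libraries overlap in Runx1 (341-381 and 357-387 CPM), where KO has 54.8-58.5 and WT 29.8-48.6 CPM of Myh10.

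Plotted against Runx1, the libraries fell into 3 clumps along the Runx1 axis, P2- below WT and KO together and these below P2+, so no correlation is given over the 12 libraries. Within the middle clump, KO libraries had more Myh10 than WT libraries at overlapping levels of Runx1. The 5 genes with log2 CPM closest in pattern to Myh10 over the 12 libraries, among 10728 genes with a mean of at least 5 CPM, were 8430419L09Rik (Pearson r = 0.994), Ap1ar (0.991), Smim13 (0.99), Dpy19l1 (0.989) and Reps2 (0.989). These coefficients run over libraries of 4 groups that differ in level, and none was computed within a group. Reps2, for example, had 93.4 CPM in P2-, 78.3 in KO, 44.4 in WT and 13.9 in P2+ cells as means. For Myl9 the closest were Vps52 (r = 0.836), Dnajc7 (0.829), Ogfod2 (0.825), Gpi1 (0.821) and Spns3 (0.818). With at most 15 counts of Myl9 in a library, this likeness is no finding.

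Of the 2 ROCK kinases, Rock2 moved and Rock1 did not pass. Rock2 had 131, 135 and 147 CPM in P2- libraries and 169, 156 and 169 CPM in P2+ libraries (log2 difference 0.27 ± 0.08 SE, adjusted p = 0.021). Its KO libraries, at 133, 133 and 137 CPM, lay below its WT libraries, at 164, 168 and 163 CPM (-0.31 ± 0.06, adjusted p = 0.00205). The KO call held under all 12 alternatives, whereas the P2+ minus P2- call was lost in 5 of 13. It was lost with the exact test of edgeR (adjusted p = 0.0796) and without P2+ replicate 1 or 3 (0.0621 and 0.0637) or P2- replicate 1 or 2 (0.0738 and 0.0627). The P2- minus WT call (-0.26 ± 0.07, adjusted p = 0.0362) was lost in 6 of 12, among them without P2- replicate 1 (0.105) and without any of the WT replicates 1, 2 and 3 (0.0976, 0.121 and 0.0761). Rock2 did not differ beyond its spread between P2+ and WT (95% interval -0.16 to 0.16), nor between KO and P2- (-0.20 to 0.11).

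Rock1 ranged from 111 to 129 CPM over the 12 libraries. Its log2 differences lay between -0.02 and 0.10 in the 6 comparisons, and the 95% interval of P2+ minus P2- ran from -0.17 to 0.19. Per length Rock2 had 11.9 ± 0.17 and Rock1 6.29 ± 0.13 RPKM in WT cells (SD, n = 3), but with the length of the principal transcript in place of all exons these became 21.6 and 17.7 RPKM, so the gap between the 2 genes depends on the length used.

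**Figure D4:**
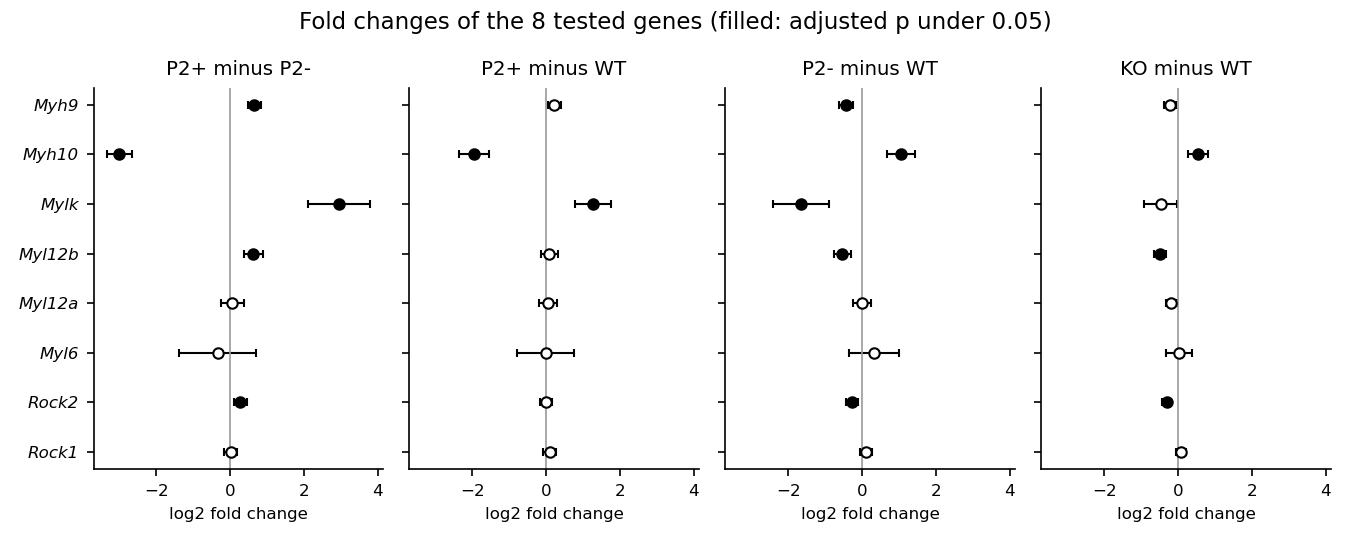
Log2 fold changes (x axis) of the 8 tested genes in 4 comparisons, with 95% intervals; filled points passed an adjusted p under 0.05 and open points did not. Myh10 and Mylk lie at -3.0 and 2.94 for P2+ minus P2-, while Rock1 stays between 0.01 and 0.10 in all 4 panels.

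Genes around the motor were read from lists drawn from textbook membership. The lists were chosen with earlier results of these data known, so their counts and medians are descriptions. Of 23 other myosin heavy and light chains and their kinases, 2 passed the filter for P2+ and P2-, and the muscle heavy chains stayed under it. Mylk3, a light chain kinase known from heart, had 33.8 CPM in P2+ and 82.2 in P2- cells as means (log2 difference -1.27 ± 0.13 SE, adjusted p = 1.38e-04), opposite to Mylk. In KO cells Mylk3 was at 106 CPM against 44.3 in WT (1.25 ± 0.09, adjusted p = 5.2e-08). The summed erythroid markers were ordered likewise in both of these comparisons.

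Of 24 unconventional myosins, 15 were tested in P2+ against P2-, 8 were higher and 3 lower (20.1% and 17.0% of all genes), with a median log2 difference of 0.41 against -0.02 over all genes. Myo1d, a membrane-linked motor, was lower in P2+ (-2.19 ± 0.12 SE, adjusted p = 4.96e-06), with 23.1 CPM against 106 CPM in P2-. Myo10, the motor of filopodia, was higher (1.40 ± 0.16, adjusted p = 2.41e-04), as was Myo1g, a motor of blood cells (1.02 ± 0.13, adjusted p = 3.40e-04). In KO against WT 14 were tested, 3 were higher and 3 lower (6.18% and 8.76% of all genes), with Myo1d higher (1.09 ± 0.11, adjusted p = 2.79e-06) and Myo10 lower (-0.86 ± 0.15, adjusted p = 7.83e-04).

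The 10 other kinases of the regulatory light chain were all tested. In P2+ against P2-, 4 were higher and 3 lower (20.1% and 17.0% of all genes; median 0.25), among them Pak1, a kinase downstream of Rac and Cdc42 (0.82 ± 0.11 SE, adjusted p = 6.23e-04), Cit, the citron kinase of the cytokinetic ring (0.50 ± 0.10, adjusted p = 0.0044) and Dapk1, a death-associated kinase (-0.54 ± 0.10, adjusted p = 0.00263). In KO against WT 2 were lower (8.76% of all genes), Pak1 (-0.53 ± 0.11, adjusted p = 0.00219) and Pak2 (-0.18 ± 0.06, adjusted p = 0.0442), and the latter was lost in 8 of 12 alternatives, including without KO replicate 1, 2 or 3 (adjusted p = 0.0663, 0.126 and 0.178) and without WT replicate 1 or 2 (0.094 and 0.116).

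Of 8 genes of the myosin phosphatase, which ROCK restrains, 5 were tested, and the myosin-binding subunit gene Ppp1r12a alone passed in P2+ against P2-, where 20.1% of all genes were called higher (0.34 ± 0.08 SE, adjusted p = 0.0115). With the replicate number as a block, Ppp1r12b and Ppp1r14b also passed (-0.31 and -0.35, adjusted p = 0.0199 and 0.0239, against 0.0536 and 0.119 without the block). They passed in 1 fit of all 12 libraries as well (-0.32 and -0.35, adjusted p = 0.0172 and 0.0481). None of the 5 passed in KO against WT by edgeR, and none had an unadjusted p under 0.05. Ppp1r12c (0.16, unadjusted p = 0.115) and Ppp1cb (0.08, unadjusted p = 0.167) had the smallest p values and passed under no alternative, DESeq2 included.

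Of 23 actin filament partners, 19 were tested in P2+ against P2-, 12 were higher and 1 lower (20.1% and 17.0% of all genes; median 0.27). The 3 with the smallest p were Cnn2, a calponin (1.134 ± 0.10 SE, adjusted p = 4.62e-05), and the tropomyosins Tpm4 (2.64 ± 0.31, adjusted p = 2.36e-04) and Tpm1 (0.68 ± 0.08, adjusted p = 2.52e-04). Flna, a filamin, was the 1 that was lower. In KO against WT 20 were tested and 9 were lower (8.76% of all genes), with a median of -0.22 against -0.003 over all genes. Cnn2 (-0.73 ± 0.08, adjusted p = 1.05e-05) and Svil, the supervillin gene (-0.76 ± 0.09, adjusted p = 1.16e-05), had the smallest p. Beside these counts, the summed erythroid markers were higher in KO than in WT libraries and the summed megakaryocyte, stem cell, neutrophil and monocyte, lymphoid, mast cell and basophil and stroma markers lower, each without overlap, and their part was not tested. The mast cell and basophil sum was mostly Gata2 (963-1037 CPM in KO and 1098-1210 in WT). Cpa3 and Ms4a2 of that list were called higher in KO. Among the megakaryocyte and platelet markers, Ppbp, Gp5 and Treml1 were called higher in KO, and Pf4, Gp1bb, Itga2b, Itgb3 and Vwf lower.

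**Figure D5:**
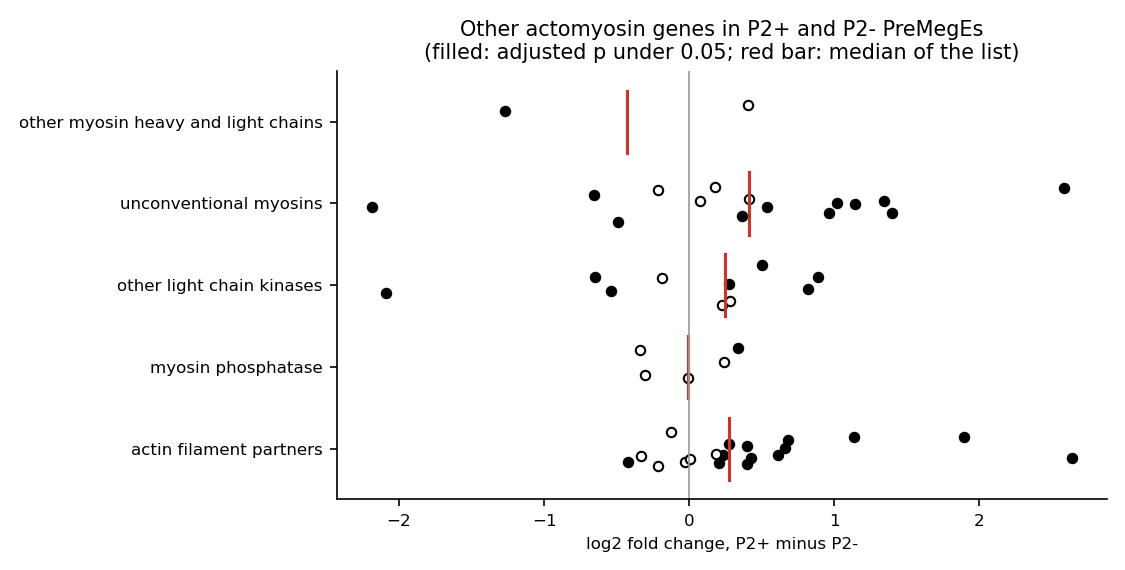
Log2 fold change (x axis, P2+ minus P2-) of every tested gene of 5 lists around the motor, 1 point per gene with vertical scatter for legibility; filled points passed an adjusted p under 0.05, and the red bar is the median of the list. The medians run from -0.43 (2 genes of other myosins and light chain kinases) to 0.41 (15 unconventional myosins), and single genes from -2.19 (Myo1d) to 2.64 (Tpm4).

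In P2+ against WT, where 9.45% of all genes were called higher and 7.07% lower, the counts higher and lower were 0 and 0 of 3 other myosins, 4 and 2 of 15 unconventional myosins and 3 and 1 of 10 kinases. They were 0 and 0 of 5 phosphatase genes and 3 and 1 of 19 actin partners. In P2- against WT, where the shares of all genes were 6.85% and 9.60%, they were 1 and 0 of 2 other myosins, 2 and 2 of 15 unconventional myosins and 0 and 1 of 10 kinases. The phosphatase list gave 0 and 1 of 5 and the actin partners 0 and 8 of 19. In KO against P2+ cells, with 16.7% and 20.3% of all genes called, the counts were 1 and 0 of 2, 3 and 8 of 14, 3 and 5 of 10, 0 and 0 of 5 and 1 and 11 of 19, in the order just given. Against P2- cells (1.33% and 0.278% of all genes), KO cells differed in Ppp1r12a and Tpm4 alone among these lists, both higher in KO.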

How the data were processed

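Per the labels, indexed strand-specific poly(A) libraries were made from sorted PreMegEs of 3 mice each. The authors aligned reads to GRCm38 with Bowtie2, summarised them over Ensembl genes by featureCounts and deposited raw whole-number counts. The submitters' processing notes also list SAMtools 0.1.19, R 3.1.0 and edgeR 3.8.5. The study states default settings for the alignment. Use of strand in the counting and the counting of reads with several possible alignments are not given in the sources used here. A table of 12 libraries (10726098 to 14445026 counts) was used, with every column assigned.

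Groups were taken from the labels. Counts were tested with edgeR 4.0.16 (quasi-likelihood, TMM) in R 4.3.3, on the 2 groups compared, for genes with 1 CPM in at least 3 libraries, with Benjamini-Hochberg adjustment over all genes tested. The procedure was tested on simulated data. Alternatives were upper-quartile factors, DESeq2 1.42.0, edgeR's exact test, no filter, 1 fit of all 12 libraries, the replicate number as a block and leaving out each library. RPKM used exonic lengths from GENCODE vM21 (GRCm38). Shares were compared with exact two-sided permutation tests. Members and lists were chosen with earlier results of these data known. 2 alternatives were added after seeing the data, the omission of replicate 2 of both P2+ and P2-, and principal transcript lengths. 1 gene list and 1 marker gene are not reported here. Pearson correlations used log2 CPM with a prior count of 2. Named genes were the 9 members, Runx1, up to 3 genes of each list with the smallest p in P2+ against P2- and up to 2 in KO against WT, and the 5 closest in pattern to Myh10 and Myl9. Fos, Myh14, Myl6b, Flna, the pseudogenes, the single genes named from the marker lists and the genes named under alternatives were chosen after their values were seen.

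Same-numbered P2+ and P2- libraries deviated together from their group means (r = 0.402, 0.59 and 0.432 over 12836 genes), although the labels do not say that they share mice. The values given are from the fit without the block. For P2+ against P2- the blocked value stands beside each member or named gene whose call it changes. Libraries of the other comparisons shared only a number, and their blocked values are in the closing section. Nothing in the labels says that the pools of 1 group were independent beyond being separate samples, so p-values measure the spread between these pools.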

Additional observations from a re-analysis of the deposited data

How the results depend on the processing

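Of 959 log2 differences recomputed for the 9 genes, Runx1 and the named genes of the lists, 882 kept their direction and their side of the threshold, 31 changed sign, 20 came to pass and 26 no longer passed. Myh10 and Mylk kept their calls in P2+ against P2-, P2+ against WT, P2- against WT and KO against P2+ under every alternative run, also without replicate 2 of both P2+ and P2- (log2 differences of -3.03 and 2.86), and the Myh10 call in KO against WT held likewise. The count of called members in KO against P2- was 1, became 2 with DESeq2, with edgeR's exact test and without the filter, which added Mylk, became 0 in 1 fit of all 12 libraries and with the replicate number as a block, and lay between 0 and 1 when 1 library was left out. With the replicate block, P2+ against P2- gave 6 members in place of 5 (Myl6 added) and 6514 genes in place of 4762, and among the members, Runx1 and the named list genes it changed no other call in that comparison but those of Ppp1r12b and Ppp1r14b. In the other comparisons, which share only a number, the block gave 3 members in place of 2 (P2+ against WT), 4 in place of 5 (P2- against WT), 4 in place of 3 (KO against WT) and 5 as before (KO against P2+), where same-numbered libraries correlated at -0.098 to 0.186. There it added Myh9 in P2+ against WT and in KO against WT (0.22 and -0.22, adjusted p = 0.0487 and 0.00837) and took away Rock2 in P2- against WT (-0.26, adjusted p = 0.0829) and Myh10 in KO against P2- (-0.51, adjusted p = 0.106). Every change of sign concerned a difference that did not pass with all libraries. Without the filter, Rock1 in P2+ against P2- was -0.005 and Myl12a in P2- against WT 0.000, and with upper-quartile factors Rock2 in P2+ against WT was 0.003. Leaving out 1 library gave, for Myl6, -0.975 to 0.178 (P2+ against P2-), -0.667 to 0.230 (P2+ against WT), -0.194 to 0.564 (P2- against WT), -0.068 to 0.146 (KO against WT), -0.519 to 0.228 (KO against P2-) and -0.191 to 0.694 (KO against P2+). For Myl12a it gave -0.064 to 0.185 (P2+ against P2-), -0.087 to 0.135 (P2+ against WT) and -0.129 to 0.064 (P2- against WT), and for Myl12b -0.025 to 0.111 (KO against P2-). For Rock1 it gave -0.024 to 0.075 (P2+ against P2-), -0.052 to 0.026 (KO against P2-) and -0.085 to 0.018 (KO against P2+), and for Rock2 -0.022 to 0.033 (P2+ against WT) and -0.076 to 0.007 (KO against P2-). The difference in the share of Myl9 in percentage points ran from -0.501 to 0.0567 (P2- against WT), -0.261 to 0.311 (KO against WT) and -0.0102 to 0.444 (KO against P2-), and for KO against WT it was -0.0012 as shares of CPM and -0.0044 with principal transcript lengths. The share of Myh10 kept its direction in all 6 pairs under both lengths. Among all genes, 203 were called in KO against P2-, but 490 with DESeq2, 359 with the exact test, 465 without the filter, 102 with the block and 42 to 409 with 1 library left out, and at least 2-fold 64, 108, 138 and 158, and 23 to 97 with 1 library left out. Calls fell from 2138 to 1230 and 1213 without WT replicates 1 and 2 (P2+ against WT), from 2101 to 1068, 1121 and 1383 without WT replicates 1, 2 and 3 (P2- against WT) and from 1910 to 1194 without KO replicate 3 (KO against WT). The causes were not tested. Myl9, with at most 15 counts in a library, was tested only without the filter, and the depth limits what can be said of it.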
